A study of Homo sapiens with 6 samples.

Results

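The mRNAs of the albumin family and of fetuin-A were followed through 6 crosslinking and immunoprecipitation libraries of AEG-1, a protein of the endoplasmic reticulum membrane. The members are ALB (serum albumin), AFP (alpha-fetoprotein), GC (the vitamin D binding protein) and AHSG (fetuin-A), and their sites are the entries of the deposited site lists that carry these 4 gene symbols. They are 4 of 8204 genes with a site in any library and hold 126 sites in all. The cells were AEG-1-14, a line made from HepG3, which the labels name as hepatoblastoma, and they stably express AEG1 carrying a C-terminal HA tag, in the controls as well. By HITS-CLIP, cells received UV light of 254 nm (2 AEG1 libraries), and by PAR-CLIP light of 365 nm (1 AEG1 library), so that RNA in contact with protein became bonded to it before the anti-HA precipitation. The negative controls, 2 for HITS-CLIP and 1 for PAR-CLIP, were precipitated alike from cells that had received no UV. The labels do not tell whether replicates were grown separately, so the spread between them is possibly technical alone, and AEG-1-14 is a single line.

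Albumin, alpha-fetoprotein and the vitamin D binding protein belong to 1 gene family of plasma carrier proteins made by liver cells. Albumin carries fatty acids and keeps up the oncotic pressure of the blood, alpha-fetoprotein is its fetal counterpart and is made again by many liver tumours, and the vitamin D binding protein carries vitamin D and binds actin. Fetuin-A, a cystatin-type glycoprotein from an unrelated family, keeps calcium phosphate from precipitating in serum. All are secreted, so their mRNAs are translated on ribosomes at the endoplasmic reticulum, the membrane in which AEG-1 resides.

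The 5′ ends of the mRNAs are shown because the sites of AEG1 began at different distances from them. RefSeq windows of GRCh38.p14 were at hand for ALB, AFP and AHSG, 3 of the 4 members. Each line gives bases of the transcribed strand counted from the annotated start of the gene, nt 21 to 50 for ALB (chr4:73404307-73404336, plus strand) and AFP (chr4:73436241-73436270, plus strand) and nt 26 to 50 for AHSG (chr3:186613085-186613109, plus strand). Capitals mark the first ATG after the annotated start.
ALB: accccacacgcctttggcacaATGaagtgg
AFP: aataacaaaataactagcaaccATGaagtg
AHSG: gttggtcccgaagcctccaaccacc

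The first ATG lay at nt 42 in ALB and nt 43 in AFP, and none was found in the first 50 bases of AHSG. The letters ATGAAGTG were shared by ALB and AFP. On the transcribed strand they occurred in 19 of 35116 RefSeq windows of the same 50 bases (0.0541%), and on either strand in 30 (0.0854%). They were picked as shared by ALB and AFP, whose windows are counted too, so nothing is read from the low share. On ALB, the first site started at nt 15 in HITS-CLIP AEG1 replicate 1, at nt 34 in replicate 2 and at nt 29 in PAR-CLIP AEG1, each before the ATG. On AFP, it started at nt 84 in both HITS-CLIP AEG1 libraries and at nt 61 in PAR-CLIP AEG1, each after the ATG. On AHSG, it started at nt 80, 29 and 26 in the same order. The files give accessions without versions, so positions in the sites and in these windows may be offset from each other.

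All members had sites in all 3 AEG1 libraries, whereas the controls separated them. A site in all 3 AEG1 libraries was found for 4 of 4 members and for 15.2% of the 8204 genes. ALB and GC also had sites in all 3 controls, as did 6 of the 8204 genes (0.0731%). AHSG had sites in the PAR-CLIP control alone among the controls, where 0.804% of the genes had one. AFP had none in any control, and 1.76% of the genes had a site in at least 1. The map of sites along the mRNAs shows the members side by side.

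**Figure D1:**
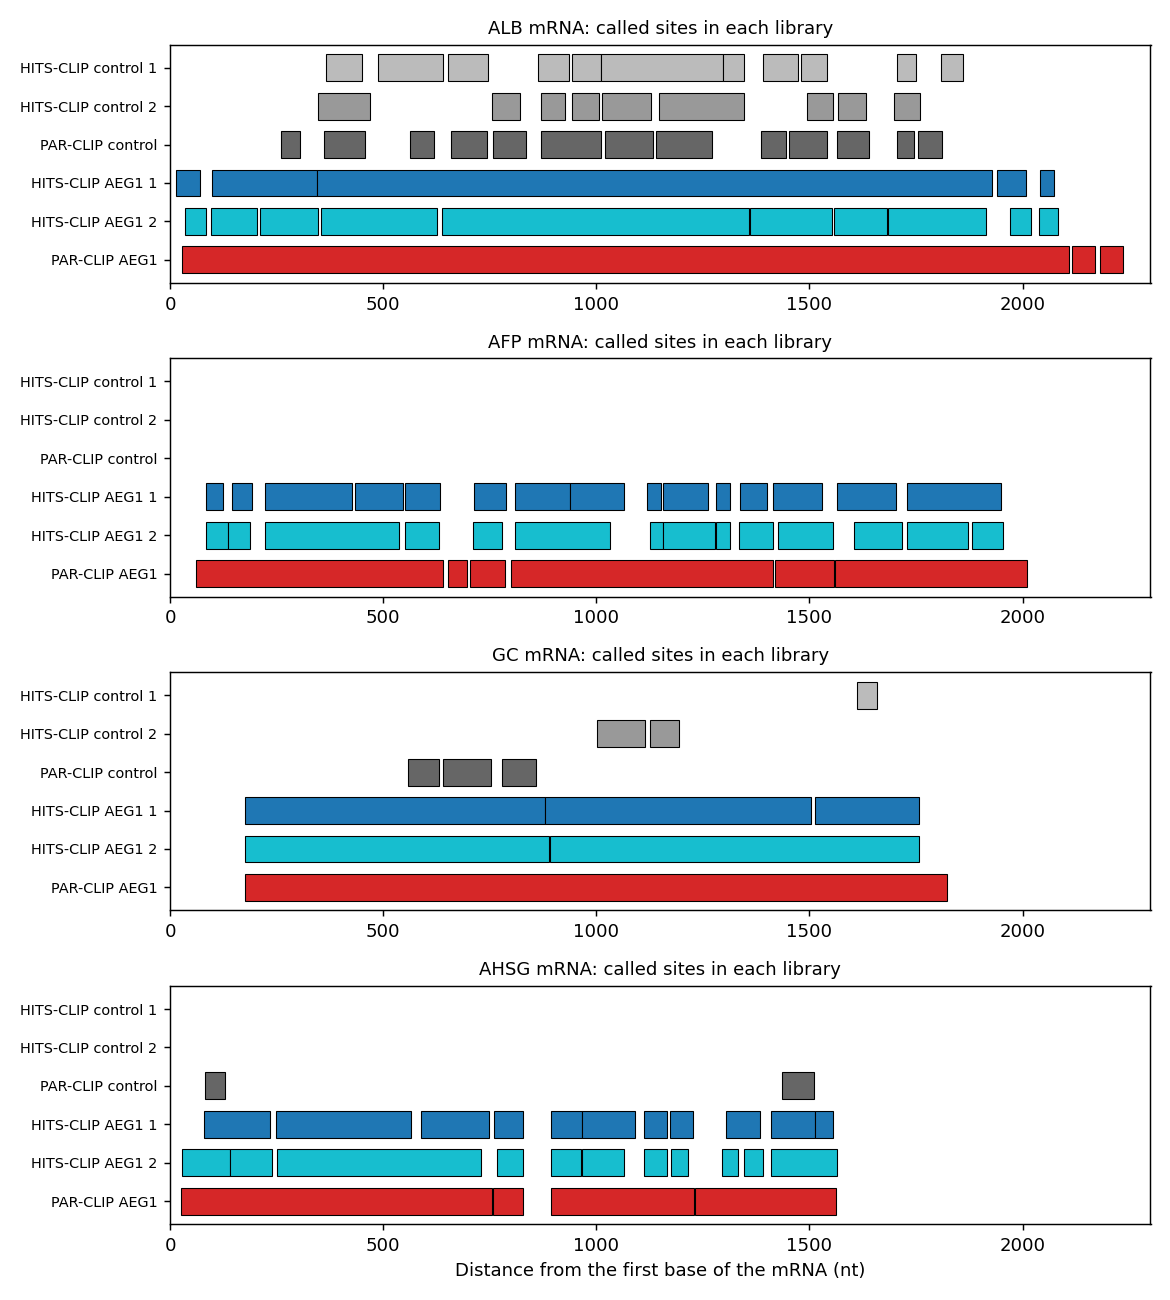
Called sites on the ALB, AFP, GC and AHSG mRNAs in each library. The horizontal axis is the distance from the first base of the mRNA in nt, each row is 1 library and each box is 1 site. Boxes cover most of each AEG1 row, with more gaps on AFP and AHSG in HITS-CLIP than on ALB and GC, the ALB controls hold 9 to 13 boxes each, and the AFP controls are empty.

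The whole series frames these values. The HITS-CLIP AEG1 libraries held 6378 and 5651 sites, their controls 60 and 90, PAR-CLIP AEG1 60085 and its control 121. Read depth is unknown. All 8 hepatocyte and hepatoblast markers, ALB and AFP among them, had a site in some library, and none of 15 markers of erythroid, leukocyte, endothelial, fibroblast, cholangiocyte or stellate cells did. The members supplied 12 of the 60 sites and 11 of the 90 sites of the HITS-CLIP controls and 18 of the 121 of the PAR-CLIP control. In the AEG1 libraries they supplied 34, 37 and 14 sites.

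ALB, the mRNA of the most abundant plasma protein, was the mRNA with the most sites in every control. It held 11 sites in HITS-CLIP control 1, 9 in control 2 and 13 in the PAR-CLIP control. In HITS-CLIP AEG1 it held 5 sites in replicate 1 and 10 in replicate 2, and in PAR-CLIP AEG1 it held 3. The number of sites of both AEG1 libraries lay above both controls for 56.5% of the genes with any HITS-CLIP site, but not for ALB, where the groups overlapped at 7.5 ± 3.54 (SD, n = 2) against 10 ± 1.41 (SD, n = 2), and the PAR-CLIP control held more sites than PAR-CLIP AEG1, as for 10.8% of the 65 genes with a site in both. With 2 libraries against 2, an exact permutation test cannot give a p below 0.333, so no test is made of any HITS-CLIP difference, and PAR-CLIP has no replicate.

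The length of mRNA inside the sites gave another picture. Sites covered 1045 nt of ALB in HITS-CLIP control 1, 814 nt in control 2, 1987 nt in AEG1 replicate 1 and 1928 nt in replicate 2. The AEG1 mean was 1957.5 ± 41.7 nt (SD, n = 2) and the control mean 929.5 ± 163 nt (SD, n = 2), and the groups did not overlap. Covered length of both AEG1 libraries lay above both controls in 57.3% of the 2253 genes with any HITS-CLIP site. In PAR-CLIP, sites covered 1064 nt of ALB in the control and 2187 nt with AEG1, and covered length was higher with AEG1 in 100.0% of the 65 genes with a site in both PAR-CLIP libraries. The widest AEG1 site ran from nt 344 to 1928 in HITS-CLIP replicate 1, from nt 638 to 1357 in replicate 2 and from nt 29 to 2107 in PAR-CLIP. The widest control site, nt 1012 to 1295, was 284 nt long.

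GC, the vitamin D binding protein mRNA, was covered almost without a break by 1 to 3 sites in each AEG1 library. Sites covered 46 and 179 nt without UV and 1570 and 1577 nt with it in HITS-CLIP. In PAR-CLIP they covered 266 nt without UV and 1647 nt with it. PAR-CLIP has 1 library on each side. In HITS-CLIP both AEG1 values lay above both control values, as for 57.3% of the genes with any HITS-CLIP site. The number of sites told them apart no better than on ALB, with 3 and 2 sites in HITS-CLIP AEG1 against 1 and 2, and 1 in PAR-CLIP AEG1 against 3. All 3 AEG1 libraries began at nt 176, with no site before it. The deposited lists place the sites of GC on 1 of 4 RefSeq transcripts of the gene, NM_001204306.

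AFP, the fetal albumin mRNA, carried more and narrower sites than ALB and GC in HITS-CLIP. It held 15 and 14 sites in HITS-CLIP AEG1 over 1527 and 1507 nt, and 6 sites over 1909 nt in PAR-CLIP AEG1. Its longest sites were 221 and 315 nt in HITS-CLIP and 615 nt in PAR-CLIP. No control value exists to set beside them, and no fold is given.

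AHSG, the fetuin-A mRNA, likewise carried more sites than ALB and GC in HITS-CLIP AEG1, and its longest there, 317 and 479 nt, were narrower than theirs. Unlike AFP, it also had sites in a control. It held 11 sites in each HITS-CLIP AEG1 library over 1228 and 1249 nt, 4 sites over 1465 nt in PAR-CLIP AEG1, and 2 sites over 122 nt in the PAR-CLIP control. A stretch of 65 nt, from nt 829 to 893, was free of sites in all 3 AEG1 libraries and in the controls. The sites before it ended at nt 828, 828 and 826, and those after it began at nt 894 in each AEG1 library.

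**Figure D2:**
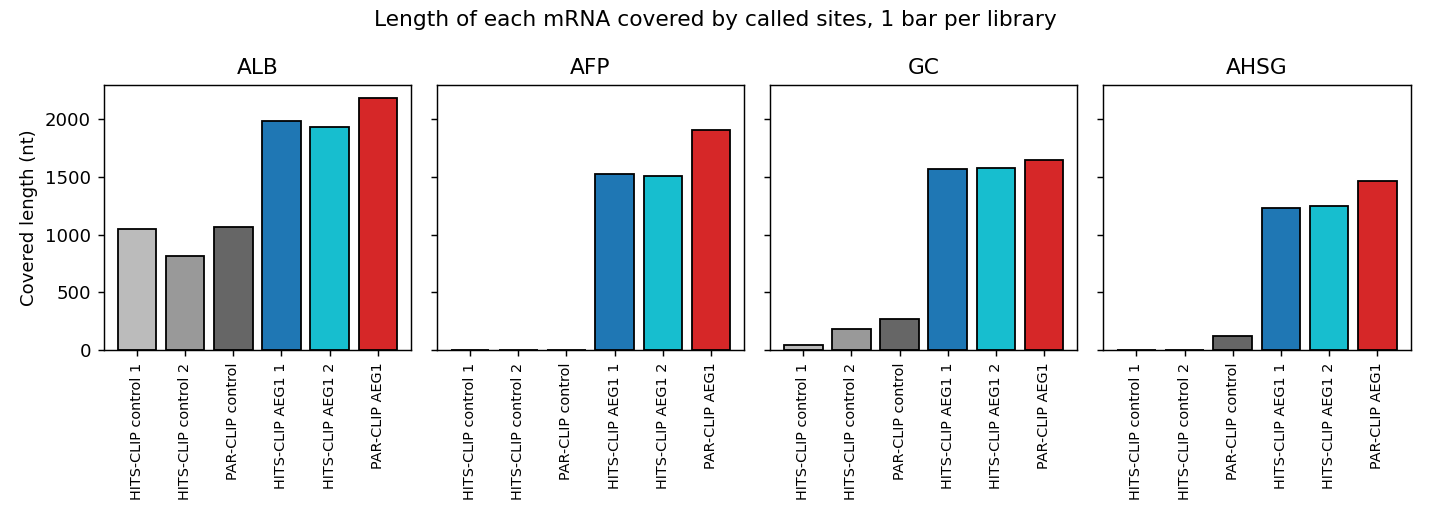
Covered length in nt (vertical axis, from 0) of each mRNA in each library, 1 bar per library and no bar where no site was called. The AEG1 bars stand between 1228 and 2187 nt on all 4 mRNAs, above every control bar of the same mRNA.

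By covered length the members stood near the top of the HITS-CLIP lists. ALB ranked 15 of 1862 genes in replicate 1 and 18 of 1702 in replicate 2, GC 34 and 28, AFP 35 and 31, and AHSG 55 and 47. These lengths were not divided by the length of the mRNA. The median over the 1321 genes with a site in both replicates was 105.5 nt. In PAR-CLIP AEG1 the ranks were 477 for ALB, 645 for AFP, 868 for GC and 1077 for AHSG, of 8009 genes. By the width of the longest site, ALB ranked 1 and GC 3 in HITS-CLIP replicate 1, and GC ranked 3 and ALB 4 in replicate 2. ALB, GC and AHSG, 3 of the 4 members, had a site of at least 300 nt in each AEG1 library, as did 12 of the 1244 genes with sites in all 3 (0.965%).

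Each AEG1 library covered most of each member, so the libraries had to overlap widely. As a share of the mRNA up to the last base of any site, HITS-CLIP replicate 1 covered 88.9% of ALB, 76.0% of AFP, 86.2% of GC and 78.5% of AHSG. PAR-CLIP AEG1 covered from 90.4% (GC) to 97.9% (ALB). Of the 34 HITS-CLIP replicate 1 sites on the members, 34 shared at least 1 nt with a site of replicate 2, against 63.2% over all genes. Neither this share nor those by length were adjusted for the width of sites or the share of the mRNA covered, and they are no sign of repeated positions. By length, 95.2% of the ALB stretch covered in replicate 1 was also covered in replicate 2, as were 91.4% for AFP, 99.7% for GC and 93.2% for AHSG. PAR-CLIP AEG1 covered 99.3%, 99.5%, 100.0% and 99.8% of the replicate 1 stretches in the same order. In all 3 libraries together, 1891 nt of ALB, 1396 nt of AFP, 1566 nt of GC and 1142 nt of AHSG were covered.

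PAR-CLIP AEG1 reached beyond HITS-CLIP at the far end of 3 mRNAs. It alone covered nt 2083 to 2107, 2115 to 2169 and 2182 to 2234 of ALB, nt 1953 to 2009 of AFP and nt 1757 to 1822 of GC. On AHSG the last site ended at nt 1555 and 1564 in HITS-CLIP and at nt 1562 in PAR-CLIP, so the methods ended alike there. Inside the mRNAs, its longest stretches without HITS-CLIP cover were nt 1064 to 1117 of AFP and nt 1232 to 1293 of AHSG. Covered length was higher in PAR-CLIP AEG1 than in either HITS-CLIP AEG1 library for all 4 members, and for 98.3% of the 1244 genes.

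Starts of sites recurred between the HITS-CLIP replicates at a higher share than over all genes, whereas ends recurred at about the same share. Of 34 replicate 1 starts on the members, 18 lay within 3 nt of a replicate 2 start (52.9%), against 24.8% of 5754 starts over all genes with sites in both libraries. Of 34 ends, 8 did (23.5%), against 23.4%. AFP contributed 9 of its 15 starts and AHSG 6 of its 11. On AFP, sites began at nt 84, 223, 552, 1157 and 1729 in both replicates. The chance of a near edge grows with the number of sites on an mRNA, which these shares do not take into account.

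The controls shared part of their positions on ALB. Of the 1380 nt of ALB covered in any control, 523 nt were covered in all 3, in 7 stretches between nt 366 and 1745. The longest of these were nt 1147 to 1271, of 125 nt, and nt 1021 to 1128, of 108 nt. Control 1 sites overlapped a control 2 site in 7 of 11 cases, and PAR-CLIP control sites overlapped a HITS-CLIP control 1 site in 10 of 13 cases. On GC the controls covered 491 nt in all, with no position in common to the 3. Every one of the 41 control sites on the members overlapped an AEG1 site of the matching library, as did 88.3% and 83.3% of all sites in the HITS-CLIP controls and 99.2% in the PAR-CLIP control. With AEG1 sites over most of these mRNAs, such an overlap was nearly certain, and nothing is read from it.

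The authors' score gives an amount for each site. It is on a log2 scale and was taken as relative to a constant of the transcript, an inference, since its normalization is not given. On that reading it can be set against other libraries on the same mRNA, but not against another mRNA. On all 4 members, 2 to the power of the score was a whole multiple of 1 smallest step per mRNA for all 126 sites, after 1 of 4 fixed multipliers. These multiples, called score steps, were not scaled by library. The multipliers were read from the ALB scores, so the fit of the 51 ALB sites holds partly by construction. What a step stands for was not established, and the sum over sites moves with how much was called. The plot of summed score steps gives them for each library.

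**Figure D3:**
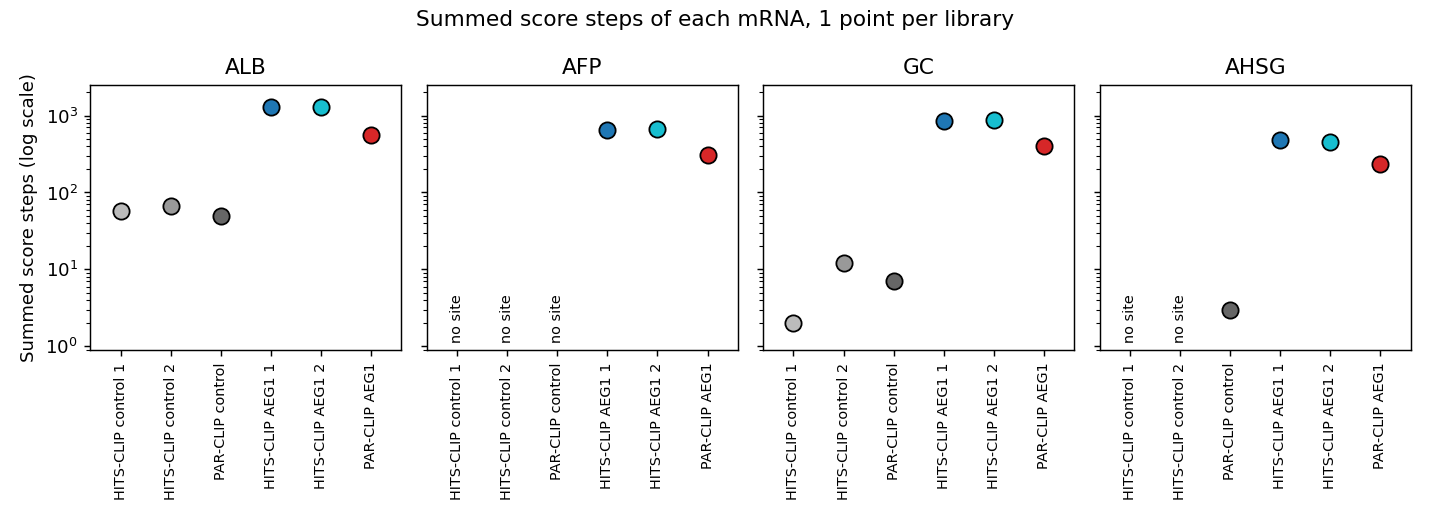
Summed score steps of the sites on each mRNA (log scale), 1 point per library, with "no site" where none was called. Steps differ between mRNAs in what they stand for, so only points within a panel compare. In every panel the HITS-CLIP AEG1 points nearly coincide, PAR-CLIP AEG1 lies below them, and controls, where present, lie lowest.

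On ALB the summed steps were 58 and 67 without UV and 1303 and 1299 with it in HITS-CLIP. In PAR-CLIP they were 50 in the control and 556 with AEG1. The summed linear scores of AEG1 were 20.8 times those of the control in HITS-CLIP, or 22.5 and 19.4 by replicate number, and 11.1 times in PAR-CLIP. The mean linear score per covered nt was 0.0442 and 0.0455 in HITS-CLIP AEG1 against 0.00374 and 0.00555 in the controls, and 0.0172 against 0.00316 in PAR-CLIP. In HITS-CLIP the ALB groups did not overlap in either measure. How many other genes show this was not counted, and PAR-CLIP has 1 library on each side.

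On GC the summed steps were 2 and 12 without UV and 856 and 867 with it in HITS-CLIP. In PAR-CLIP they were 7 without UV and 404 with it, from 1 library each. The HITS-CLIP groups did not overlap, and how many other genes show this was not counted. The ratio was 123 in HITS-CLIP and 57.7 in PAR-CLIP. The HITS-CLIP ratio rests on few control steps, and by replicate number it was 428 and 72.3. Covered length differed 14.0-fold in HITS-CLIP and 6.19-fold in PAR-CLIP, so part of each ratio is covered length. The mean linear score per covered nt was 1665 and 1679 in HITS-CLIP AEG1 against 132.8 and 205 in the controls, and 749 against 80.4 in PAR-CLIP.

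On AFP the summed steps were 648 and 662 in HITS-CLIP AEG1 and 304 in PAR-CLIP AEG1. On AHSG they were 487 and 454 in HITS-CLIP AEG1, 238 in PAR-CLIP AEG1 and 3 in the PAR-CLIP control. The AHSG ratio in PAR-CLIP was 81.0, from those 3 steps, with a 12.0-fold difference in covered length. Its mean linear score per covered nt was 0.0236 with AEG1 and 0.00349 in the control.

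The ratios of AEG1 to control can be read against other mRNAs seen on both sides. In HITS-CLIP, 31 genes had sites in all 4 libraries, with a median ratio of 1.65, and 5 of them (16.1%) reached 10, ALB and GC among them. In PAR-CLIP, 65 genes had sites in both libraries, with a median ratio of 90.3, and 62 (95.4%) reached 10, ALB, GC and AHSG among them. ALB lay low in the PAR-CLIP set, where 4.62% of the genes had a smaller ratio, while 36.9% did for GC and 46.2% for AHSG. None of these ratios is corrected for the size of the libraries.

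The highest score on each mRNA stood apart in the same way. On ALB it was 0.36 in each HITS-CLIP control, against 6.31 and 5.34 with AEG1 after UV. In PAR-CLIP it was -0.57 in the control and 5.22 with AEG1. On GC the HITS-CLIP controls reached 12.58 and 14.75 and the AEG1 libraries 20.28 and 20.55. The PAR-CLIP control reached 13.16 on GC and PAR-CLIP AEG1 20.23. On AHSG it was 4.48, 5.05 and 4.11 in the AEG1 libraries and -1.79 in the PAR-CLIP control, and on AFP 3.20, 3.75 and 3.04 in the AEG1 libraries. In HITS-CLIP, both AEG1 libraries exceeded both controls on ALB and GC, as for 45.2% of the 31 genes with sites in all 4 libraries. The lowest site of GC in any library already scored 11.58. Since each transcript was taken to have its own constant, the scores of GC give it no rank against the other members.

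Wide sites scored high on each mRNA. Across all sites of a member, Spearman's rho between width and score was 0.660 for ALB (51 sites), 0.917 for AFP (35), 0.895 for GC (12) and 0.873 for AHSG (28). Control and AEG1 sites were pooled, so on ALB, GC and AHSG rho also holds the difference between these libraries. Sites of 1 library share its depth, so these values are descriptions. The widest site held 90.1% of the summed linear score of ALB in HITS-CLIP replicate 1, 46.2% in replicate 2 and 99.3% in PAR-CLIP AEG1. The sum for ALB was nearly equal in the replicates (87.9 and 87.6), while its division into sites was not.

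The HITS-CLIP replicates gave nearly the same summed linear score on each member. Replicate 1 over replicate 2 was 1.00 for ALB, 0.979 for AFP, 0.987 for GC and 1.07 for AHSG. Over the 1321 genes with sites in both, the median was 1.04 and the middle 50% lay between 0.786 and 1.5. Those genes had a median of 2 sites over 105.5 nt, against 2.5 to 14.5 sites over 1238.5 to 1957.5 nt on the members. The range was not adjusted for this, so the closeness is not shown to be particular to the members.

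PAR-CLIP AEG1 held a smaller amount than HITS-CLIP AEG1 on all 4 mRNAs, where most other mRNAs held a larger one. PAR-CLIP over the HITS-CLIP mean was 0.427 for ALB, 0.464 for AFP, 0.469 for GC and 0.506 for AHSG. Against each replicate alone the values ran from 0.427 to 0.489 with replicate 1 and from 0.428 to 0.524 with replicate 2. Over the 1244 genes with sites in all 3 AEG1 libraries the median was 5.42, and 2.25% to 3.46% of them lay below the respective member. PAR-CLIP lay below both HITS-CLIP libraries for 4 of 4 members and for 7.72% of those genes. The number of sites was lower in PAR-CLIP AEG1 than in either HITS-CLIP library for 4 of 4 members, against 10.1% of those genes. The longest site of each member was wider in PAR-CLIP AEG1, up to 2079 nt on ALB and 1647 nt on GC. A lower number of sites is thus no sign of a smaller amount. Covered length was larger in PAR-CLIP, from 1.05 times HITS-CLIP for GC to 1.26 times for AFP. Over the 1244 genes the median of this ratio was 7.57, and 1.37% to 2.73% of them lay below the respective member. HITS-CLIP AEG1 already covered most of each member up to the last base of any site. Little room was left for a larger ratio of covered length, so nothing is read from its low rank. The sizes of the libraries are part of each ratio but are the same for all genes, and a method measured in 1 library has no replicate check.

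**Figure D4:**
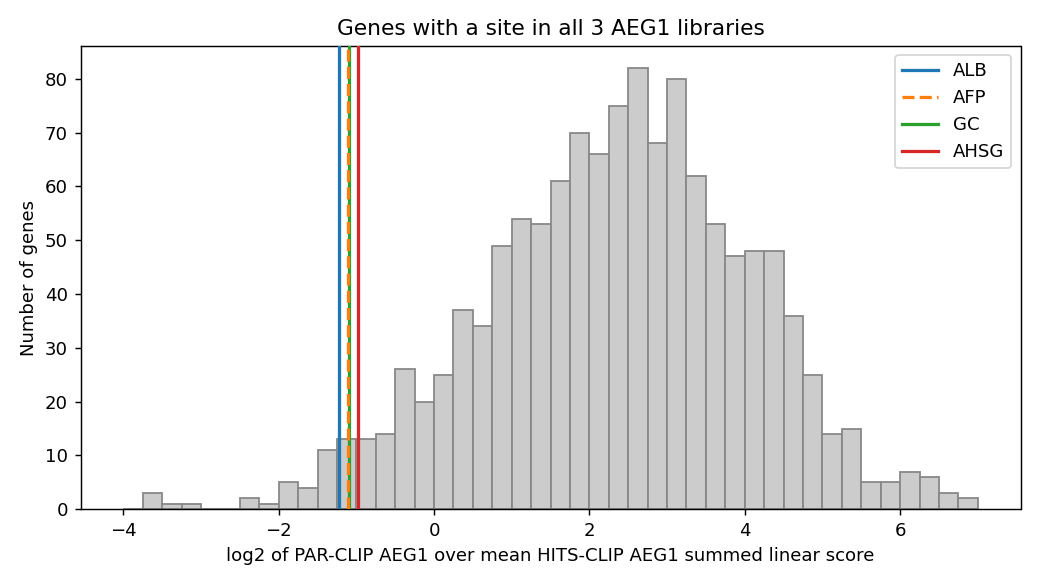
Histogram of log2 of the PAR-CLIP AEG1 over mean HITS-CLIP AEG1 summed linear score (horizontal axis) for the 1244 genes with sites in all 3 AEG1 libraries, with the number of genes on the vertical axis. Lines mark the members, whose ratios of 0.427 to 0.506 lie left of the bulk of genes, with AFP (dashed) and GC nearly on top of each other.

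The other relatives of the members gave sites on 1 of 4 mRNAs. AFM (afamin, the vitamin E binding member of the albumin family), FETUB (fetuin-B) and HRG (histidine-rich glycoprotein) had no site in any library. KNG1, the kininogen mRNA, had 10 and 9 sites over 497 and 425 nt in HITS-CLIP AEG1 and 13 sites over 1254 nt in PAR-CLIP AEG1, with none in the controls. Its PAR-CLIP over HITS-CLIP ratio was 1.33, above those of all 4 members.

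Among 44 mRNAs of secreted liver proteins, a list that includes the members and their relatives, 35 carried sites in each of the HITS-CLIP AEG1 replicates, against 16.1% of all genes with a site in any library. The list was chosen with earlier results of these data known. It also includes 8 mRNAs with no site in any library, a kind that the 16.1% leaves out. No enrichment is read from this comparison. PAR-CLIP AEG1 had sites on 35, the HITS-CLIP controls on 3 and 6, and the PAR-CLIP control on 8. The PAR-CLIP over HITS-CLIP ratio was below 1 for 21 of the 34 with sites in all 3 AEG1 libraries and for 114 of the 1244 genes. The list median was 0.805, and 0.875 without the members. Transferrin (TF), the iron carrier, at 0.472, SERPINA1, or alpha-1-antitrypsin, at 0.476 and C3, the central complement component, at 0.420 were close to the members, and F5, coagulation factor V, stood far above them at 38.2. HP, or haptoglobin, at 0.0883 and the apolipoproteins APOA1 at 0.0899 and APOE at 0.263 stood below them. These 7 were chosen after their values were seen.

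The mRNAs most like each member in covered length were sought by the summed absolute difference of log2(1 + covered nt) over the 6 libraries. For ALB they included GC (9.69) and SERPINA1 (10.4), which were far from it by this measure. SERPINA1 had 45 and 96 nt in the HITS-CLIP controls, where ALB had 1045 and 814 nt. For GC they included SERPINA1 (2.01), which was the nearest, and DKK1 (6.41), a secreted Wnt antagonist. For AFP they were GPC3 (0.242), a glypican of the cell surface, LGALS3BP (0.301), a secreted galectin ligand, and GRN (0.335), or progranulin. For AHSG they were CALR (1.37), a chaperone of the endoplasmic reticulum, and the cytosolic proteins ACTB (1.68), or beta-actin, and EEF2 (1.73), an elongation factor.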

How the data were processed

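The libraries were sequenced as 50 nt single reads, and Bowtie appears, with no version, per the submitters' processing notes. Not given in the sources used here are its reference, the site caller, any threshold, the use of controls and the normalization of the score. The deposited tables, 1 per library, hold transcript, gene symbol, start, end and the authors' log2 score. Sites appear to have been called per library. Starts were taken as 0-based and are printed 1-based. Positions are in nt of the transcript, as deposited by the authors.

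Covered length is the union of sites. Summed linear score is the sum of 2 to the power of the score. Score steps were accepted within a relative tolerance of 5e-05, with multipliers read from the ALB scores. No test across genes was run, since files hold no read counts. Calculations used Python 3.11.15, pandas 2.3.3 and numpy 2.4.6; the interval functions were tested on simulated data. Genes named are the members, their 4 relatives and the 3 mRNAs most like each member, of which some are not reported here; TF, C3, F5, HP, APOA1 and APOE were picked from the secreted liver list after their values were seen. The members and lists were chosen with earlier results of these data known. Alternatives covered left-out replicates, short or low-scoring sites, stricter overlap and other measures of amount.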

Additional observations from a re-analysis of the deposited data

How the results depend on the processing

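For the members together, HITS-CLIP AEG1 over control was 3.09 for the number of sites (2.96 to 3.23 without 1 library), a sum that includes AFP and AHSG, which had no HITS-CLIP control site; for ALB alone it was 0.75 and for GC 1.67. The ratio of covered length over the members together was 6.03 (5.76 to 6.33), and the highest score on ALB and GC differed by 6.11 (5.57 to 6.65). Of 44 secreted liver mRNAs, 35 had sites in both replicates (35 to 36 without 1 replicate). A cut at the median score of all sites, 6.72, kept all 12 sites of GC and none of the other members. With it the ratios were 1.67 for sites and 14.0 for covered length, and 9 of the 44 mRNAs were left. If each transcript has its own constant, such a cut selects transcripts by that constant. The longest site in place of covered length gave 8.13, and the median score in place of the highest gave 4.69. With overlap of at least 50% of both sites, 79.4% of the replicate 1 sites and 2.44% of the control sites were shared; the cause was not tested, but AEG1 sites were wider. The median PAR-CLIP over HITS-CLIP ratio, 0.467 (0.463 to 0.470 without 1 replicate), was 1.15 by covered length and 0.400 by number of sites, alternatives chosen after seeing the data. Replicate numbers were not shown to pair the libraries: deviations of same-numbered HITS-CLIP libraries correlated at -0.11 for covered length and 0.11 for the highest score over 31 genes. With the replicate block the ratio of sites was 3.10, and with crossed numbers 3.09. Neither ratio was tested. No member site was 25 nt or shorter.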
